A study of Mus musculus with 15 samples.

Results

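The complement genes C1qa, C1qb, C1qc, C1s1, C3, C4b, Cfb, C3ar1 and C5ar1 were followed in mouse kidney RNA. They were taken by symbol from a table of 24421 genes, and all 9 were found and passed the filter on low counts that left 16752 genes to be tested. The kidneys came from wild-type (WT) mice on day 14. Unilateral ureteral obstruction (UUO) ties off the ureter of 1 kidney, which leads to tubular loss, inflammation and fibrosis. The groups were a sham operation on a normal diet (sham, n = 3), UUO on a normal diet (UUO, n = 6) and UUO on a Si-based diet (UUO_Si, n = 6). No sham group received the Si-based diet, so UUO_Si and sham differ in both the operation and the food. The labels used here give no strain, sex or age and do not say whether each library came from a separate animal, so the p-values measure the spread between these samples, which may be technical. The comparison of the diets bears on the stated question of how an oral Si-based agent changes renal mRNA.

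Complement is a cascade of plasma and tissue proteins. C1q, built of the products of C1qa, C1qb and C1qc, recognises immune complexes and dying cells. Its binding leads to activation of the serine protease C1s, which cleaves C4 in the classical pathway. C3 is the protein on which all pathways meet, factor B (Cfb) forms the protease of the alternative pathway, and the peptides C3a and C5a released on activation act through the receptors encoded by C3ar1 and C5ar1. Macrophages are a major source of C1q, and injured renal tubules are known to make C3.

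Sham libraries held 5.53 to 8.31, UUO_Si libraries 7.75 to 11.5 and UUO libraries 11.2 to 15.4, each in units of 1000000 counts. The labelled tissue was checked by its markers: the summed level of 8 proximal tubule genes, among them Lrp2 and Slc34a1, was 12182 to 14589.6 in sham. Levels are in CPM, that is, counts per 1000000 counts of the scaled library size. In 4 libraries (UUO_Si replicate 6, UUO replicates 5 and 6, and sham replicate 3) between 791 and 1264 of 1463 olfactory and vomeronasal receptor genes had at least 1 count, against 84 to 139 in the other 11; they are called olfactory-receptor libraries here. The sample names also carry code series: RM1 for sham, RM3 and RM6 (replicates 5 and 6) for UUO, RM4 and RM7 (replicate 6) for UUO_Si. The labels used here do not say what the series mark. Results are therefore also given without these libraries where they move.

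For C1qb, C1s1, C3 and C3ar1, which rose after obstruction (values below), the 250 bases before their start sites are shown, as RefSeq windows on GRCm38.p6 (mm10). All 4 genes lie on the minus strand, and each sequence runs 5′ to 3′ towards the start. RefSeq windows were found for 6 of the 9 genes. C1qc and C5ar1, which also rose, had windows that are not printed. The motifs searched on both strands were PU.1 (GAGGAAGT), interferon response (GAAANNGAA), STAT (TTCNNNGAA), NF-kappa-B (GGANTTNCC), the GC box (GGGCGG) and C/EBP (TTGCNNAA). The TATA motif was spelled TATAAA. Capitals mark matches, none of which overlapped another in these windows. The windows are C1qb at chr4:136886201-136886450, C1s1 at chr6:124542360-124542609, C3 at chr17:57228137-57228386 and C3ar1 at chr6:122856158-122856407.
C1qb: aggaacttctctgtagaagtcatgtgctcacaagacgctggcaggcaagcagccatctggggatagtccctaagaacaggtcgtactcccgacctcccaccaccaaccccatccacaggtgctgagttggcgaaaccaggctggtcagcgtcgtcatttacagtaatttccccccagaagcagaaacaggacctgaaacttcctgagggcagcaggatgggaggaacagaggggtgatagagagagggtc
C1s1: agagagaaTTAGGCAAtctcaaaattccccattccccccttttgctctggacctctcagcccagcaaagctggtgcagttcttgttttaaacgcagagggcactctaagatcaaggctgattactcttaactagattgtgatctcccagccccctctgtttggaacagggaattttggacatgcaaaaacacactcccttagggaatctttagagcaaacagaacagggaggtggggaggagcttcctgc
C3: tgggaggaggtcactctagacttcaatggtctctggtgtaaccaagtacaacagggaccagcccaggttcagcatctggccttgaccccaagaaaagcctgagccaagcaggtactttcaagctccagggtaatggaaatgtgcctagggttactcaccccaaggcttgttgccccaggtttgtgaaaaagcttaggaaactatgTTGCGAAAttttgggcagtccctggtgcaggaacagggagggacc
C3ar1: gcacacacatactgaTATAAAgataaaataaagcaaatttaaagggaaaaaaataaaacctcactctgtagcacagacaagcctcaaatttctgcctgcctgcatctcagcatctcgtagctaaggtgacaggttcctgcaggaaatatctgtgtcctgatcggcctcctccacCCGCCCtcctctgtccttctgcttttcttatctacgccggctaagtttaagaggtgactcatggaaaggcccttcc
C1s1 and C3 each held a C/EBP match, which 9.56% of 32851 windows of the same length also held. C3ar1 held a TATA match (in 12.4% of windows) and a GC box (32.7%), and none of these letters were found in the C1qb window. In the windows not printed, C1qc held a PU.1 match (2.44%) and a GC box, and C5ar1 an interferon response match (7.13%). A second RefSeq window of C1s1, for a start further downstream, held no match. The matches describe the letters only. The C3ar1 window reaches a few bases into the GENCODE gene model, and those of C1qc and C5ar1 overlap their gene models further, with the C1qc GC box and the C5ar1 match inside them.

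Obstruction was accompanied by higher levels of 8 of the 9 genes and a lower level of Cfb. In the edgeR quasi-likelihood test with Benjamini-Hochberg adjustment over all tested genes, 8 were called higher in UUO than in sham, while 27.5% of all genes tested were, and 1 was called lower, against 26.4%. In all 9 the UUO and sham libraries did not overlap, which held for 46.9% of genes tested. The median log2 fold change of the 9 was 3.18, against -0.04 over all genes tested. Without the 4 olfactory-receptor libraries all 9 calls stood, with C3ar1 at 5.01, C5ar1 at 3.72 and Cfb at -1.40. The plot of levels by library shows every value.

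**Figure D1:**
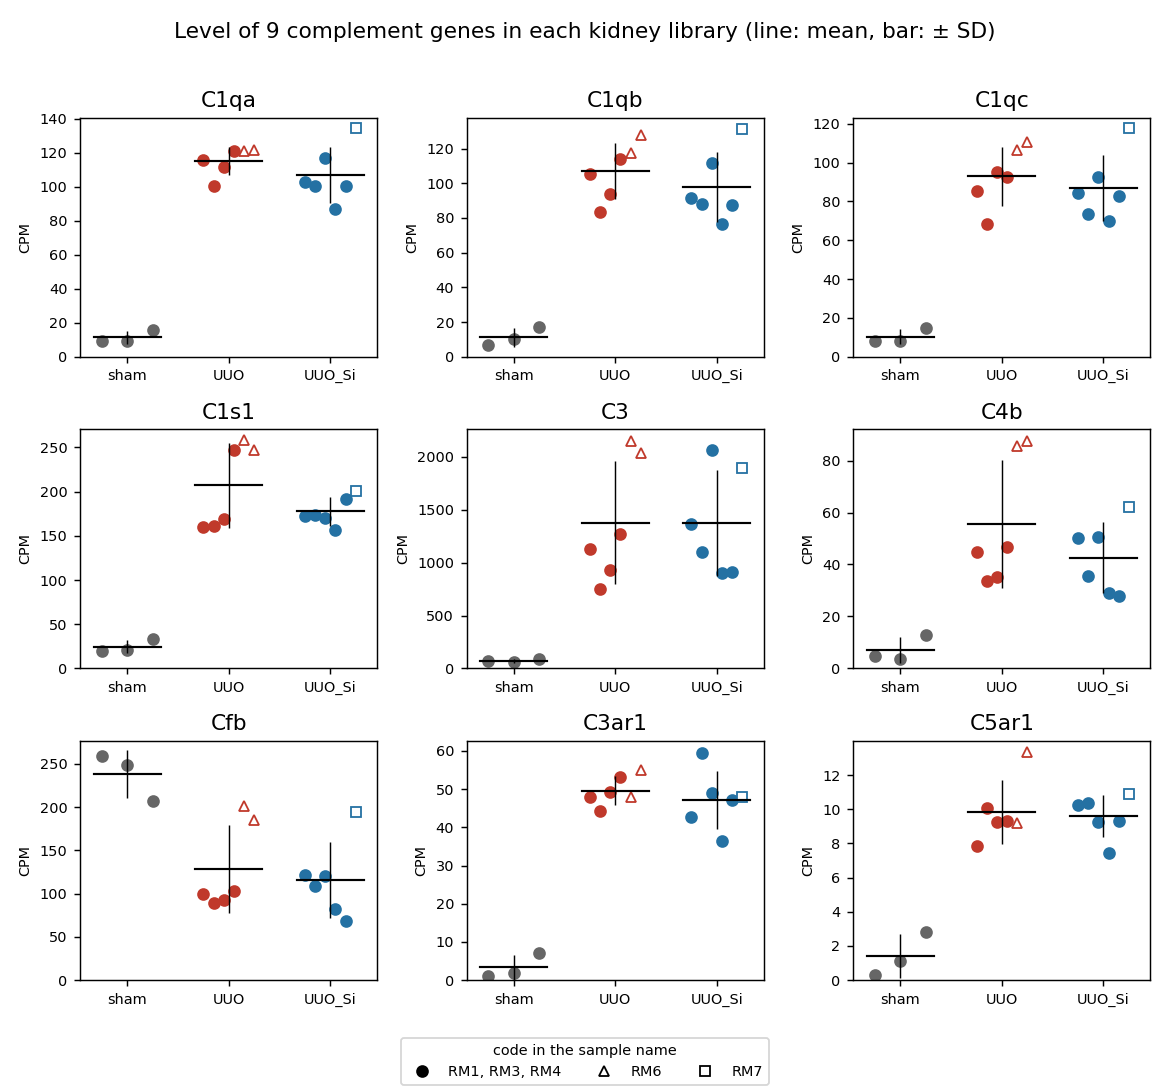
Level in CPM (y axis, from 0) of each of the 9 genes in each library, by group; points are libraries, with the shape giving the code series, lines are group means and bars ± SD. In 8 panels the 3 sham libraries lie below every obstructed library, and in the Cfb panel they lie above them.

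The 3 C1q chains lie side by side on chromosome 4 (GRCm38, GENCODE M21: C1qb 136880129 to 136886187, C1qc 136889804 to 136893065, C1qa 136895917 to 136898803) and moved alike. C1qa had 9.03, 9.43 and 15.5 CPM in sham replicates 1 to 3 and a lowest, median and highest value of 101, 118 and 122 in UUO. The gap between the groups was several times the spread within either. C1qa rose by 3.36 ± 0.18 (SE) on the log2 scale, a 10.3-fold difference (edgeR adjusted p = 2.68e-10). C1qb had 6.59, 9.91 and 17.2 CPM in sham and 83.6, 109.6 and 128 (lowest, median, highest) in UUO, a change of 3.27 ± 0.26 (edgeR adjusted p = 1.82e-08). C1qc had 8.31, 8.15 and 14.6 CPM in sham and 68.2, 93.6 and 110.4 in UUO, a change of 3.18 ± 0.23 (edgeR adjusted p = 6.34e-09). Sham replicate 3, 1 of the olfactory-receptor libraries, was the highest sham library for each chain.

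Macrophage markers rose with the C1q chains. All 11 tested of 12 markers, including Lyz2, Csf1r and Mrc1, were called higher in UUO (27.5% of all genes tested were). The summed level of the 12 lay between 114 and 192 CPM in sham libraries and between 905 and 1127 in UUO libraries. In UUO_Si libraries it lay between 817 and 1197. No marker was at 0 in a whole group. In bulk tissue, more cells of a type and more RNA per cell cannot be told apart. The summed C1q level over the summed macrophage level was 0.221 ± 0.040 (SD, n = 3) in sham, 0.302 ± 0.018 (n = 6) in UUO and 0.293 ± 0.023 (n = 6) in UUO_Si (lowest obstructed library 0.269, highest sham library 0.247). The markers in this sum did not rise alike. Csf1r, the largest part of the sum in sham, had 66.9 to 80.2 CPM in sham and 191 to 212 in UUO. Lyz2 had 7.99 to 16.9 and 279 to 436 CPM, and Mrc1 11.5 to 28.6 and 157 to 183. Lyz2 thus rose by a larger factor than the C1q chains and Csf1r by a smaller factor. The direction of the ratio therefore depends on the markers used. The part of macrophage number in the change was not tested.

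C1s1 encodes the protease C1s, which becomes active after C1q binds (chromosome 6, 124530345 to 124542359). It had 20.1, 20.8 and 32.96 CPM in sham and 160.0, 208 and 258 (lowest, median, highest) in UUO. The lowest UUO library was above the highest sham library by more than the range within sham. The change was 3.08 ± 0.22, an 8.47-fold difference (edgeR adjusted p = 4.39e-09). The UUO libraries fell into a lower set, replicates 1 to 3 at 160.0, 161 and 169 CPM, and a higher set, replicates 4 to 6 at 247, 258 and 247 CPM. Fibroblast markers split the same way among the UUO libraries: their summed level was 5568 to 5973 CPM in replicates 1 to 3 and 9337 to 10392 in replicates 4 to 6. All 8 fibroblast markers were called higher in UUO than in sham (27.5% of all genes tested were). In UUO_Si the orders of C1s1 and the fibroblast sum differed. Replicate 3 had the highest fibroblast sum (6718 CPM) but a C1s1 level of 170, and replicate 5 had 5557 and 192. Replicate 4 was lowest for both (4773 and 156 CPM). The part of the fibroblast markers in the C1s1 levels was not tested. C1s1 reads are uncertain on 2 counts: C1s2 is a near-identical copy, and 18.4% of C1s1 exon length is shared with the antisense gene Gm16567, which could not be told apart because the labels do not state the strand setting of the counting.

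C3 had the largest estimate of the 9 (chromosome 17, 57203970 to 57228136). It had 66.6, 56.4 and 87.1 CPM in sham and 752, 1200.1 and 2155 (lowest, median, highest) in UUO. The lowest UUO library was far above the highest sham library, although the UUO libraries themselves spanned a wide range. The change was 4.30 ± 0.42, a 19.7-fold difference (edgeR adjusted p = 1.76e-07), which ranked 62 from the top of the 16752 genes tested. Without the olfactory-receptor libraries it was 4.06, below the 5.01 of C3ar1. C4b encodes C4, the protein cleaved by C1s (chromosome 17, 34728380 to 34743882). C4b had 4.87, 3.52 and 12.9 CPM in sham and 33.7, 45.9 and 87.7 in UUO, a change of 3.01 ± 0.46 (edgeR adjusted p = 3.10e-05). Without sham replicate 3, its highest sham library, the C4b change was 3.72. C4a is a near-identical copy, and reads split between them make both values uncertain.

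Cfb moved the other way (chromosome 17, 34856374 to 34862518). It had 259, 249 and 207 CPM in sham and 88.7, 101 and 201 (lowest, median, highest) in UUO. The 2 highest UUO libraries, replicates 5 and 6 at 201 and 186 CPM, came close to the lowest sham library, and the other 4 lay at 88.7 to 103 CPM. The fall was -0.89 ± 0.29 on the log2 scale, a 1.86-fold difference (edgeR adjusted p = 0.0165). The call was lost without sham replicate 1 (-0.82, edgeR adjusted p = 0.0657) or sham replicate 2 (-0.85, edgeR adjusted p = 0.0553), and without the RM6 and RM7 libraries the change was -1.31 (edgeR adjusted p = 3.12e-06). Proximal tubule markers fell too, 8 of 8 tested (26.4% of all genes tested were called lower). Their sum went from 12182 to 14589.6 CPM in sham to 669.8 to 1289.7 in UUO (none at 0). The part of these markers in the Cfb change was not tested. Of the exon length of Cfb, 79.5% is shared with the gene Gm20547 on the same strand, so reads of the latter may be among those counted here.

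The receptor genes had few counts in sham. C3ar1, the C3a receptor (chromosome 6, 122847138 to 122856161), had 1.15, 1.92 and 7.20 CPM in sham, from 8, 12 and 38 counts. In UUO it had 44.4, 48.6 and 55.1 CPM (lowest, median, highest). C3ar1 was even across the UUO libraries and uneven across sham, where replicate 3 was highest. The change was 3.94 ± 0.34, a 15.3-fold difference (edgeR adjusted p = 4.20e-08), and 5.03 without sham replicate 3. C5ar1, the main C5a receptor (chromosome 7, 16246743 to 16259540), had 0.287, 1.12 and 2.84 CPM in sham, from only 2, 7 and 15 counts, and 7.87, 9.27 and 13.3 CPM in UUO. The change was 2.87 ± 0.38 (edgeR adjusted p = 5.73e-06), and 3.82 without sham replicate 3. Both receptors are known on myeloid cells. Beside the macrophage markers above, 1 of 4 tested neutrophil markers was called higher (Csf3r, 1.63, named after its value was seen) and 0 lower. Over all genes tested, 27.5% were called higher and 26.4% lower. Cxcr2, of the same list, went the other way, with means of 11.4 CPM in sham and 7.16 in UUO. In UUO_Si against sham, 1 of the 4 was called higher and 1 lower (27.2% and 25.5% of all genes). The summed level of the 7 neutrophil markers found was 11.0 to 32.0 CPM in sham and 18.7 to 33.6 in UUO, ranges that overlap.

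The Si-based diet left the 9 genes without a detectable difference in the obstructed kidney. None was called between UUO_Si and UUO by edgeR, where 0% of all genes were called higher and 0% lower, and none had an unadjusted p below 0.05 (626 of all genes did). DESeq2 and limma-voom also called none of the 9. The groups overlapped for all 9, as for nearly all genes tested (0.203% did not overlap). All 9 estimates were below 0, with a median of -0.11 against 0.0011 over all genes; C3, Cfb and C5ar1 changed sign under other settings, such as 0.31 for C3 and 0.06 for Cfb without the RM6 and RM7 libraries.

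For C1qa the UUO_Si libraries had 87.0, 102 and 134 CPM (lowest, median, highest) against 101, 118 and 122 in UUO, and the difference was -0.11 with a 95% interval of -0.35 to 0.14 on the log2 scale. C1qb (-0.13, interval -0.48 to 0.22) and C1qc (-0.10, -0.41 to 0.21) were close to it. C1s1 had 156, 173 and 201 CPM in UUO_Si, all below the 3 highest UUO libraries, and a difference of -0.22 (-0.53 to 0.09). Of those 3, replicates 5 and 6 are RM6 libraries, and without the RM6 and RM7 libraries the C1s1 difference was -0.095. C3, C4b and Cfb had the widest intervals. C3 had 902, 1231 and 2064 CPM in UUO_Si and a difference of -0.01 (-0.57 to 0.56). C4b had 27.9, 43.0 and 62.0 CPM and a difference of -0.38 (-1.003 to 0.24), the largest estimate in the fit of all 15 libraries. Without the RM6 and RM7 libraries C4b was at -0.055 and the largest estimate was that of C3, 0.31. Cfb had 68.8, 115 and 194 CPM and a difference of -0.14 (-0.67 to 0.38). For these 3 genes the intervals do not exclude differences of a size that the C1qa interval does. C3ar1 had 36.5, 47.6 and 59.6 CPM (-0.07, -0.48 to 0.33) and C5ar1 7.43, 9.77 and 10.9 CPM (-0.03, -0.50 to 0.43). Intervals of this width do not show that the diets act alike.

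**Figure D2:**
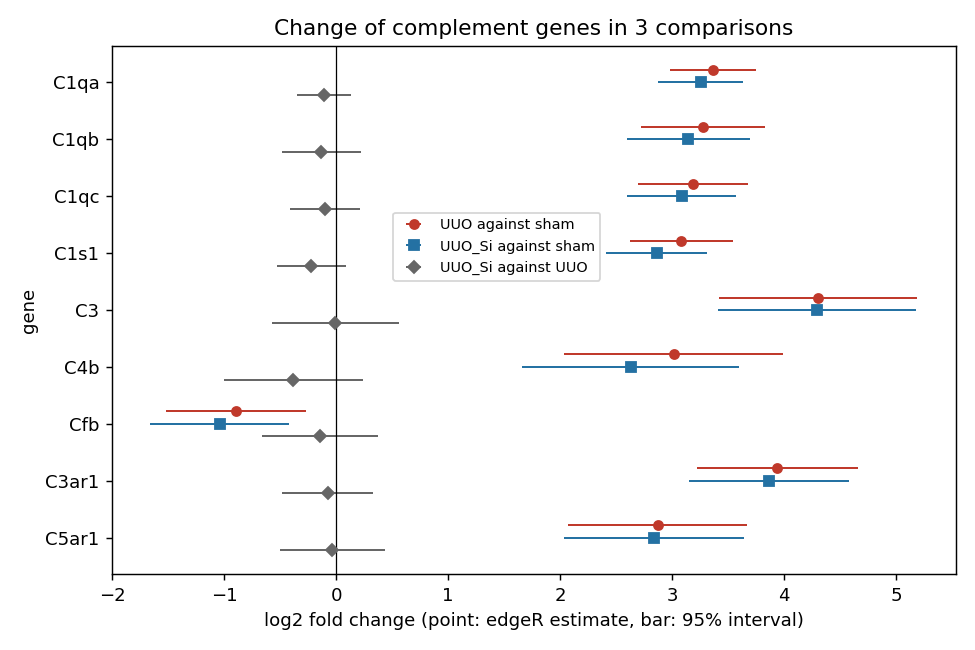
Log2 fold change of each gene (x axis) in 3 comparisons; points are edgeR estimates and bars 95% intervals. The intervals of UUO_Si against UUO all include 0, while those of both obstructed groups against sham lie above 0 for 8 genes and below 0 for Cfb.

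Against sham, UUO_Si gave the same pattern of calls, though this comparison shares its sham libraries with the one above. Of the 9 genes, 8 were called higher (27.2% of all genes were) and 1 lower (25.5%), with no overlap of the groups in any (45.7% of all genes). The log2 fold changes were 3.26 for C1qa, 3.14 for C1qb, 3.08 for C1qc, 2.86 for C1s1, 4.29 for C3, 2.63 for C4b, 3.86 for C3ar1 and 2.84 for C5ar1. Cfb differed by -1.04 (edgeR adjusted p = 0.00684), and this call stood with each sham or UUO_Si library left out in turn. Without sham replicate 3, C4b was at 3.34, C3ar1 at 4.95 and C5ar1 at 3.79.

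Levels of different genes were compared per length, as CPM per kb of exon (the union of the exons of each gene). In sham Cfb was the highest, at 84.4 ± 9.85 (SD, n = 3) CPM per kb, and its libraries stood clear of all others. Below it came C3 (13.6), C1qa (10.9), C1qb (10.3), C1s1 (7.86) and C1qc (5.36), whose libraries overlapped from each to the next. C4b (1.24), C3ar1 (0.795) and C5ar1 (0.551) were lowest and overlapped one another. In UUO the order was C3 (268 ± 113, n = 6), C1qa (111), C1qb (98.4), C1s1 (66.2), C1qc (48.1), Cfb (45.4), C3ar1 (11.5), C4b (9.78) and C5ar1 (3.83). C3 stood clear of C1qa, Cfb of C3ar1, and C4b of C5ar1; all other neighbours overlapped. UUO_Si gave the same order, with the C1s1 libraries also clear of the C1qb libraries. With the longest transcript as length, C1qc ranked above C1s1 in all 3 groups. The ratio of C3 to Cfb per kb was 0.166 ± 0.058 in sham, 5.86 ± 0.72 in UUO and 6.64 ± 1.53 in UUO_Si, so Cfb went from the leading gene to the sixth while C3 took its place. The ratio of C1qa to C1qb was 1.12 ± 0.27, 1.14 ± 0.10 and 1.16 ± 0.06 in the same groups.

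**Figure D3:**
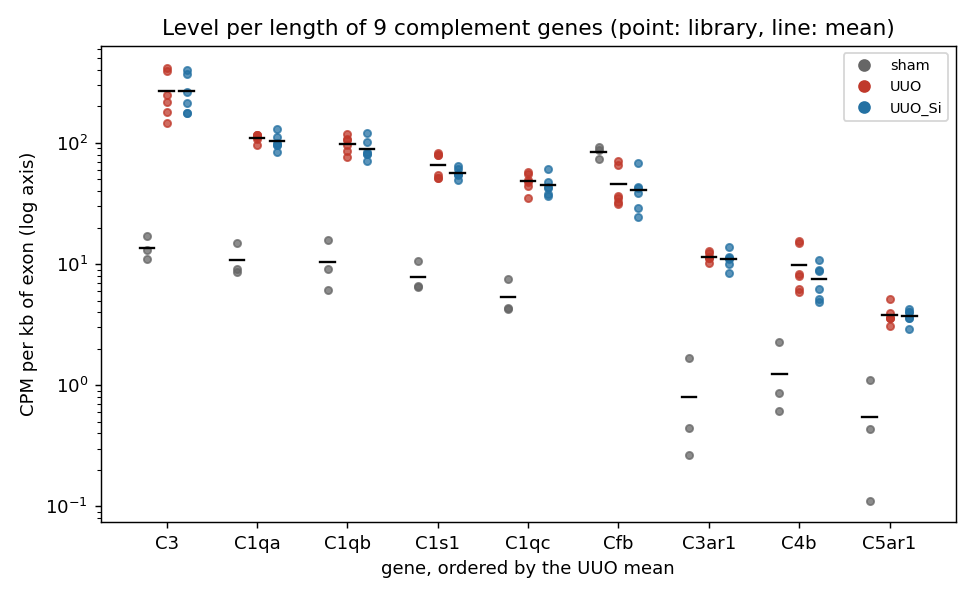
Level per length in CPM per kb of exon (log y axis) of the 9 genes, ordered by the UUO mean; points are libraries and lines group means. Cfb leads in sham at a mean of 84.4, and C3 leads in UUO and UUO_Si at 268 and 267.

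Among the obstructed libraries the members did not vary alike. In the 3 libraries of series RM6 and RM7, C1qa, C1qb, C1qc, C4b and Cfb were each higher than in all 9 libraries of series RM3 and RM4. The gap was small for C1qa (121 to 134 CPM against 87.0 to 121) and wide for Cfb (186 to 201 against 68.8 to 122) and C4b (62.0 to 87.7 against 27.9 to 50.7). For C3 they were above 8 of the 9 (1899 to 2155 against 752 to 2064, the highest being UUO_Si replicate 3), and for C1s1 above 8 of 9. The receptors did not share this: all 3 were above only 4 of the 9 for C3ar1 and 2 of the 9 for C5ar1. The same 3 libraries are olfactory-receptor libraries, so the 2 features cannot be told apart here. The summed proximal tubule level was 1189.9 and 1289.7 CPM in UUO replicates 5 and 6 and 669.8 to 802 in the other UUO libraries. In UUO_Si it was 1515 in replicate 6, 826 to 1219.9 in replicates 1 to 4 and 525 in replicate 5, which also had the lowest Cfb. Within UUO_Si the tubule sum and Cfb gave the same order from the highest: replicates 6, 1, 3, 2, 4 and 5. Within UUO the orders differed only between replicates 5 and 6 and between replicates 2 and 3. Across the groups the order was not fully the same. UUO_Si replicate 1 had a tubule sum of 1219.9 CPM, above UUO replicate 5, but a Cfb level of 122 against 201. The part of the tubule sum in these differences was not tested. Within series RM3 and RM4 alone, Cfb was 88.7 to 103 CPM in UUO and 68.8 to 122 in UUO_Si, and C4b 33.7 to 46.8 and 27.9 to 50.7, so the diets overlapped there too.

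**Figure D4:**
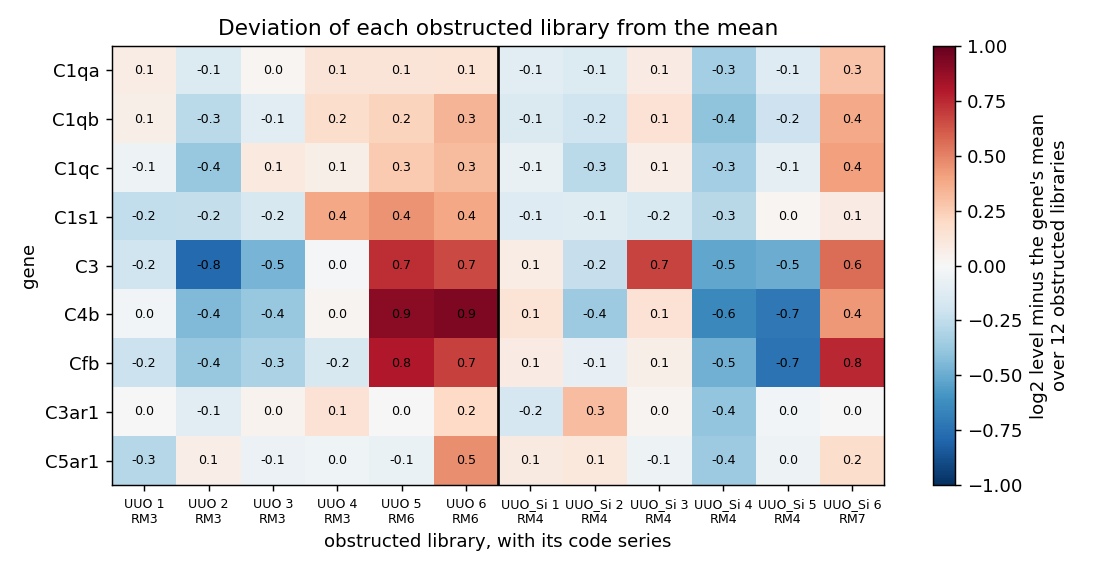
Log2 level of each gene in each of the 12 obstructed libraries minus the mean of the gene over them (colour and number), with the code series under each library. C3, C4b and Cfb are high in UUO replicates 5 and 6 and UUO_Si replicate 6 (C3 also in UUO_Si replicate 3) and low in UUO replicates 2 and 3 and UUO_Si replicates 4 and 5.

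Correlations across the 12 obstructed libraries, which share scaling and include the RM6 and RM7 libraries, describe the same structure. Pearson's r of log2 levels was 0.96 between C1qa and C1qb, 0.92 between C1qb and C1qc and 0.90 between C1qa and C1qc, and over the 9 RM3 and RM4 libraries 0.96, 0.81 and 0.82. C4b and Cfb had r = 0.94 over 12 libraries and 0.88 over 9, and C3 and C4b 0.90 and 0.81. C3ar1 and C5ar1 had r = 0.56 over 12 libraries and 0.52 over 9. C5ar1 had r = 0.43 with C1qa over 12 libraries but 0.16 over 9.

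The genes most like each member were taken as the 3 of 12898 genes of at least 5 CPM on average with the highest Pearson's r over the same 12 libraries. For C1qa they were Efhd2 (r = 0.97), Lcp1 (0.96) and Cd74 (0.96). For C1qb they were Gm2a (0.98), Cfdp1 (0.98) and Tmsb4x (0.97), and for C1qc Akr1c13 (0.97), Cfdp1 (0.95) and Pqbp1 (0.94). C1s1 was nearest to the alpha-globin genes Hba-a1 and Hba-a2 (0.97 each, with identical values in the table) and Pdzrn3 (0.97). C3 was nearest to Gsta2 (0.95), Psmb5 (0.95) and Gm10639 (0.94). C4b was nearest to its copy C4a (0.97), Slc40a1 (0.96) and Gstm2 (0.95). Cfb was nearest to Apob (0.99), Acsm2 (0.98) and Cndp2 (0.98). Likeness among the obstructed libraries did not go with one direction against sham. The partners of Cfb, which fell, fell too (Apob -1.97, Acsm2 -3.59 and Cndp2 -0.94), but of the partners of genes that rose, Gsta2 (-3.28), Gm10639 (-3.52), Gm2a (-0.51) and Gm11128 (-5.49) were called lower in UUO by edgeR. C3ar1 was nearest to Ust (0.90), Car13 (0.85) and Wars (0.85), and C5ar1 to Tlr3 (0.89), Gm11128 (0.87) and Manea (0.86). All partners were picked as the highest of 12898 genes over only 12 libraries, and the r that chance would give was not tested. The 9 RM3 and RM4 libraries are among these 12, so r over them is no separate support. Over the 9 RM3 and RM4 libraries r was 0.93, 0.92 and 0.86 for these partners of C3ar1, 0.73, 0.85 and 0.77 for those of C5ar1, 0.95, 0.92 and 0.96 for those of Cfb and 0.92, 0.84 and 0.80 for those of C4b.

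Around the 9 genes, 39 other complement genes were listed by role, of which 32 passed the filter on low counts. In UUO against sham, 16 were called higher, 1 lower and 15 neither (27.5% of all genes tested were called higher and 26.4% lower), with a median log2 fold change of 1.35 against -0.04 over all genes tested. The remaining 7 (Mbl2, Fcnb, Colec10, C8b, C9, Vtn and Vsig4) were too low to test. No gene of the 32 was called between the diets by edgeR, DESeq2 or limma-voom. At an unadjusted p below 0.05 there were 2 of the 32, against 626 of all 16752 genes tested. They were Fcna (-2.03) and Colec11 (-1.32), named after their values were seen. Fcna had 3 to 13 counts in UUO replicates 1 to 4 and 69 and 34 in UUO replicates 5 and 6. In UUO_Si it had 0 to 2 counts in replicates 1 to 5 and 20 in replicate 6. UUO replicates 5 and 6 and UUO_Si replicate 6 are olfactory-receptor libraries.

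The other proteases of C1 rose beside C1s1: C1ra (18.2 to 98.8 CPM on average, 2.45 ± 0.23), C1rb (2.51) and C1s2 (2.38, a near-identical copy of C1s1). In the lectin pathway, which activates C4 through mannose-binding lectin proteases, 2 of 5 tested were called higher, a count too small to set against the 27.5% of all genes: Masp1 (2.43, and 3.57 without sham replicate 3) and Colec11 (2.02). The Colec11 call was lost without sham replicate 1 (1.41, edgeR adjusted p = 0.0823) or 2 (2.14, edgeR adjusted p = 0.0553), and its value was 2.88 without sham replicate 3. Mbl1, a mannose-binding lectin, had -1.70 (edgeR adjusted p = 0.226), from 7, 9 and 11 counts in sham, 0 in UUO replicates 1 to 4, and 24 and 14 in replicates 5 and 6, which are olfactory-receptor libraries. For Mbl1 limma-voom gave a lower level (-4.30, limma adjusted p = 0.000231). Of the alternative pathway, Cfp, encoding the stabiliser properdin, rose by 1.29 ± 0.15, from 6.46 to 15.7 CPM. Cfd, encoding the protease that cleaves factor B, had an estimate of 4.18 ± 2.44 that did not pass (edgeR adjusted p = 0.162). It lay at 0 to 6.86 CPM in 12 libraries and at 26.7, 107 and 83.0 CPM in UUO replicates 5 and 6 and UUO_Si replicate 6, and the Cfd estimate was 0.31 without the olfactory-receptor libraries and 0.82 with limma-voom.

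The terminal pathway held the only call of a lower level among the 32 in the edgeR fit of all 15 libraries. C8a, a component of the membrane attack complex, had 93.0, 72.1 and 60.4 CPM in sham and 0.539, 1.04 and 3.89 (lowest, median, highest) in UUO. Every UUO library was far below every sham library, and the change was -5.72 ± 0.42 (edgeR adjusted p = 6.59e-09). Hepatocyte markers, whose cells are the known main source of many complement proteins, were also lower, 4 of 5 tested (26.4% of all genes were). Their sum was 37.9 to 40.4 CPM in sham and 2.88 to 13.7 in UUO. None of them was at 0 in a whole group. Proximal tubule markers were lower as well, 8 of 8 tested, from a summed 12182 to 14589.6 CPM in sham to 669.8 to 1289.7 in UUO. The part of either marker set in the C8a change was not tested. C6 and C7, which join the same complex, rose by 2.23 ± 0.44 and 1.67 ± 0.29, C6 being at 2.96 without sham replicate 3.

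Of 4 tested soluble regulators, 3 were called higher. Over all genes tested, 27.5% were called higher and 26.4% lower. The counts by role given here are too small to set against these shares. Clu, encoding clusterin, rose from 166 ± 33.8 (SD, n = 3) to 2146 ± 468 (n = 6) CPM (3.69 ± 0.24). Serping1, encoding the C1 inhibitor that blocks C1s, rose from 45.0 ± 8.39 to 400.4 ± 124 CPM (3.16 ± 0.28). Cfi, encoding factor I, the protease that inactivates C3b and C4b, had 3.87 to 6.23 CPM in sham and 14.3 to 43.6 in UUO (2.19 ± 0.52, edgeR adjusted p = 0.00184). The fourth, C4bp, encoding the C4b-binding protein, was at 1.55 (edgeR adjusted p = 0.0701), from 1, 0 and 12 counts in sham and 21 to 40 in UUO. C4bp was called higher by edgeR without sham replicate 3 (4.68, edgeR adjusted p = 0.000117), by DESeq2 (1.55, DESeq2 adjusted p = 0.0336) and by limma-voom (3.55, limma adjusted p = 0.00151). None of the 6 membrane regulators was called by edgeR, and none had an unadjusted p below 0.05. Cr1l, which encodes the rodent regulator Crry, had -0.17 ± 0.10 (37.1 against 41.6 CPM), Cd59a -0.17 ± 0.11 and Cd59b -0.66 ± 0.54. DESeq2 also called none of them, while limma-voom called Cr1l lower (-0.23, limma adjusted p = 0.0367), as did edgeR without the olfactory-receptor libraries (-0.27, edgeR adjusted p = 0.0413). Of the other receptors 4 of 5 tested were called higher, among them the integrin genes Itgam (3.18), Itgax (3.11) and Itgb2 (2.80), whose products form complement receptors 3 and 4; without sham replicate 3, Itgam was at 3.89 and Itgax at 3.80.

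**Figure D5:**
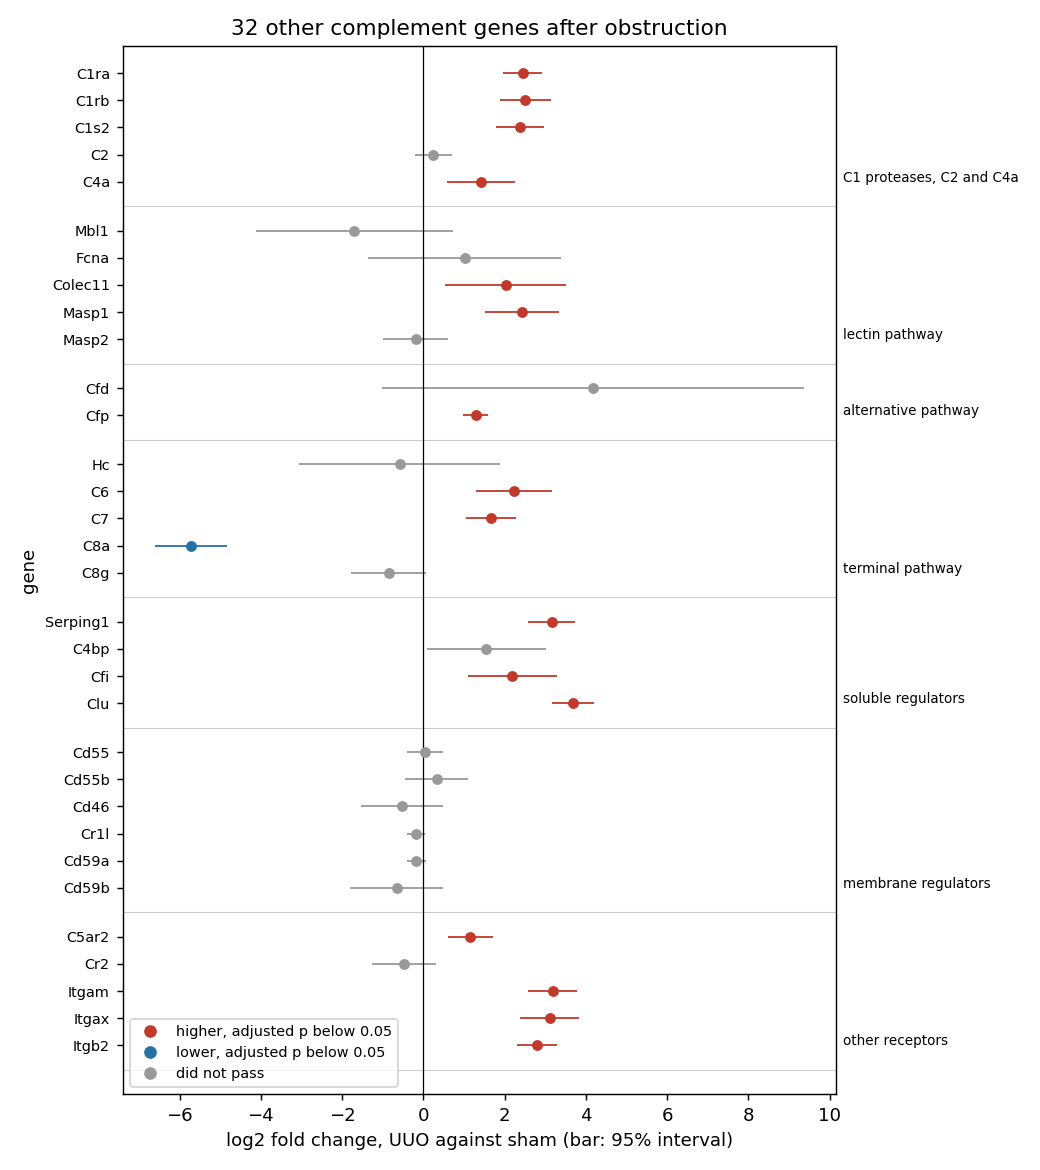
Log2 fold change of UUO against sham (x axis) for 32 other complement genes grouped by role; points are edgeR estimates, bars 95% intervals and colours the call. The 6 membrane regulators lie near 0 or have intervals that include it, while C8a stands alone far to the left at -5.72.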

How the data were processed

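The authors deposited expected counts (reads per gene, with fractions) for 24421 genes in 15 libraries; TopHat2 2.1.1, Cuffdiff 2.2.1 and mm10 are named in the submitters' processing notes, without their roles, the annotation or the strand setting. The kit was a stranded Pico kit for total RNA, per the labels. The counts were rounded, and genes passing edgeR's filter (minimum count 10) were tested in 1 fit of all 15 libraries with a mean per group: edgeR 4.0.16 quasi-likelihood test, TMM scaling, Benjamini-Hochberg adjustment over 16752 genes, threshold 0.05. R was 4.3.3. Log2 levels used a prior count of 2. SE is the log2 change over the square root of F. Positions and lengths are from GENCODE M21 (GRCm38), which matched 95.7% of symbols. Dixon's test was applied to groups of 6 (critical value 0.625).

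The members and gene lists were chosen with earlier results of these data known. Named genes were all members, up to 3 other complement genes per role with the smallest p and any called lower, the 3 most correlated genes per member, and up to 3 markers per list with the highest mean. Promoter windows were shortened to the bases before the start after matches had been seen. Alternatives were other scalings, filters and tools (DESeq2 1.42.0, limma 3.58.1), a replicate block, and libraries left out; a term for series RM6 and RM7 was chosen after seeing the data. Some complement genes are not reported here and were left out of the list and its counts. The fit was tested on simulated data. No libraries had identical values.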

Additional observations from a re-analysis of the deposited data

Results flagged for a closer look

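None of the 9 genes had an outlying library in a group of 6 by Dixon's test. Over the members and the 32 other complement genes, 8 of 82 groups had one. The values were not on a log scale and the genes share the same libraries, so this count has no simple chance rate. UUO_Si replicate 6, an olfactory-receptor library, was the highest of its group for Fcna (1.67 CPM), Hc, encoding C5 (1.75 CPM), Serping1 (445 CPM) and Cfd (83.0 CPM), and the lowest for Cr2 (4.58 CPM). UUO replicate 6 was the highest of its group for Cfd (107 CPM) and for C8a (3.89 CPM). UUO_Si replicate 3 was the highest of its group for C7, at 139.7 CPM.

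Cfd is also known as adipsin, a product of fat cells. The summed level of the adipocyte genes Adipoq, Plin1, Lep, Cidec and Retn, a list chosen after the Cfd values were seen, was 19.2 CPM in UUO replicate 5, 58.4 in UUO replicate 6 and 73.9 in UUO_Si replicate 6, and 0 to 7.58 in the other 12 libraries, where Cfd was 0 to 6.86 CPM. Cfd in UUO replicate 5 was 26.7 CPM. Their part in the Cfd values was not tested.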

How the results depend on the processing

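Against sham, the log2 fold changes of the 9 genes kept their direction under all 20 alternatives run for each of UUO and UUO_Si, and all calls stood except that of Cfb in UUO, lost without sham replicate 1 or 2. With each library left out in turn, UUO against sham gave 7719 to 9114 genes called, 8 to 9 members and 16 to 18 other complement genes, and UUO_Si against sham 7693 to 8800 genes, 9 members and 15 to 19 others; the diets gave 0. Between the diets DESeq2 called 1 gene, none of those listed. The estimate of C3 between the diets changed sign with limma-voom (0.10), without the olfactory-receptor libraries (0.31), without series RM6 and RM7 (0.31), with a term for them (0.21), and with a library left out (-0.16 to 0.17). Cfb did so without the olfactory-receptor libraries (0.065), without RM6 and RM7 (0.064), with the term (0.053) and with a library left out (-0.36 to 0.029). C5ar1 did so with limma-voom (0.043), without the olfactory-receptor libraries (0.029), without RM6 and RM7 (0.029), with the term (0.014) and with a library left out (-0.081 to 0.066). The cause was not tested. Level per length moved for C1qc with the longest transcript as length, to 8.60 (sham), 77.3 (UUO) and 72.1 (UUO_Si) CPM per kb, and for Cfb in sham to 74.1 with unscaled totals. The low sham counts of C5ar1 and C3ar1 limit their fold changes.

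The labels used here do not state that replicate numbers pair the samples. Correlations between same-numbered libraries were -0.39 to 0.75, highest between UUO and UUO_Si replicate 6, both olfactory-receptor libraries. Of the 6 UUO libraries, 1 correlated best with its own number in UUO_Si. Such values cannot show whether the samples were paired. With a replicate block 9 members were called in UUO against sham (8433 genes, 17 other complement genes), 9 in UUO_Si against sham (8268 genes, 19 others) and 0 between the diets, where C3 was at 0.024. The block moved no count of calls by over 1.5 times.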
